A study of Mus musculus with 11 samples.

Results

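The Th2 programme genes are the genes through which CD4 T cells become, and act as, type 2 helper cells. The list named 7 of them by symbol: the transcription factors Gata3 and Stat6, the receptor chains Il4ra and Il1rl1, and the cytokines Il4, Il5 and Il13. Of these 7 genes, 6 had probe sets with 1 gene symbol, 9 probe sets in all among the 45101 on the array, and Il1rl1 was not analysed here. Where a gene had several probe sets, the brightest on average across the 11 arrays stood for it, as for each of the 18193 genes tested. In type 2 helper cells interleukin 4 binds a receptor that contains Il4ra, which activates the transcription factor STAT6, and STAT6 raises GATA3. GATA3 in turn opens the locus that holds Il4, Il13 and Il5, whose products drive antibody class switching, mucus production and eosinophil growth. In regulatory T cells GATA3 is also known to be expressed and to take part in their function, and loss of Foxp3 in mice is known to release type 2 cytokines.

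The study measured expression in CD4 T cells of 6- to 8-week-old mice, taken from lymph nodes and spleen, enriched by positive selection and sorted for GFP, with 1 Affymetrix array per sample. The 3 GFPKO arrays came from Foxp3 GFPKO/WT mice, from the CD4 T cells positive for GFP. By that name the mice carry 1 wild-type Foxp3 allele beside an allele named GFPKO. The 5 Treg arrays are of CD4 T cells labelled Foxp3-positive, and the 3 TN arrays of those labelled naive and Foxp3-negative. The labels give no strain, no allele for the Treg and TN mice and no link between arrays and mice. The spread behind each p-value is therefore that among arrays, and it may be technical only. Bulk arrays cannot tell fewer cells of a type apart from less RNA per cell.

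Values are log2 RMA values as deposited, and array medians lay between 4.07 and 4.16. Foxp3, the gene altered in the GFPKO mice, read 6.75, 7.19 and 6.86 in GFPKO, 3.34, 3.64, 3.62, 3.29 and 3.48 in Treg, and 3.99, 3.33 and 3.12 in TN. Where the probe set lies relative to the change in the GFPKO allele is not given in the sources used here, so the GFPKO values do not test that label. The Treg values lay within the range of the TN values, although the label says Foxp3-positive. The allele of the Treg mice is not given, so this reading neither bears out nor refutes the label. Treg means the arrays labelled Treg throughout, and any direction reported for them is that of the arrays so labelled. Among the 8 Treg markers, Foxp3 included, GFPKO exceeded TN by the test for 8 and Treg exceeded TN for 7, all but Foxp3. All 7 measured genes of T cell identity lay above the background level in each group. Of 13 myeloid and dendritic markers, limma called 9 lower in GFPKO than in TN, and 9 lower and 1 higher in Treg than in TN. Among all genes, 3.02% and 3.42% were lower in these comparisons. H2-Aa, 1 of these markers, averaged 5.34 in GFPKO, 6.19 in Treg and 10.56 in TN. The part of such signals in the comparisons with TN, Gata3 included, was not tested. Xist and the Y-linked genes separated the GFPKO arrays (female pattern) from all Treg and TN arrays (male pattern), so sex and genotype cannot be told apart in any comparison with GFPKO. The difference between the 3′ and 5′ actin control signals, a measure of RNA integrity, was 0.770, 0.832 and 0.451 in GFPKO replicates 1 to 3. It was between 0.442 and 0.611 in Treg and between 0.381 and 0.526 in TN. As a guide to background, 27 genes specific to other tissues (liver, heart, pancreas and others) were measured, and the 90th percentile of their means, 4.78, is called the background level here. The highest of the 27 means was 5.63, and 3 of the 27 genes lay above the background level in each group. Probe sets differ in their own background, so this level is a guide and not a detection call.

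Differences were tested with limma over all 18193 genes on all 11 arrays, and a gene was called at a Benjamini-Hochberg adjusted p under 0.05. For GFPKO minus TN, 1 of the 6 genes was called, Il4, which was higher. Of all genes 5.66% were called there, 2.64% higher and 3.02% lower. For Treg minus TN, 2 of 6 were called, Gata3 higher and Il4 lower, where 9.97% of all genes were called, 6.54% higher and 3.42% lower. For GFPKO minus Treg, 1 of 6 was called, Il4 again higher, where 9.43% of all genes were called, 2.55% higher and 6.88% lower. With 6 genes, these shares say little about the list as a whole. The median log2 fold change of the 6 genes was 0.18 for GFPKO minus TN, 0.045 for Treg minus TN and -0.038 for GFPKO minus Treg, beside medians over all genes of -0.037, 0.030 and -0.079. The comparisons share arrays with each other and are not independent. Of the 6 genes, Gata3 and Il4 had called differences, in Il4 partly between signals under the background level. None was called for Stat6, Il4ra, Il13 or Il5, and Il13 and Il5 were under that level on each array.

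**Figure D1:**
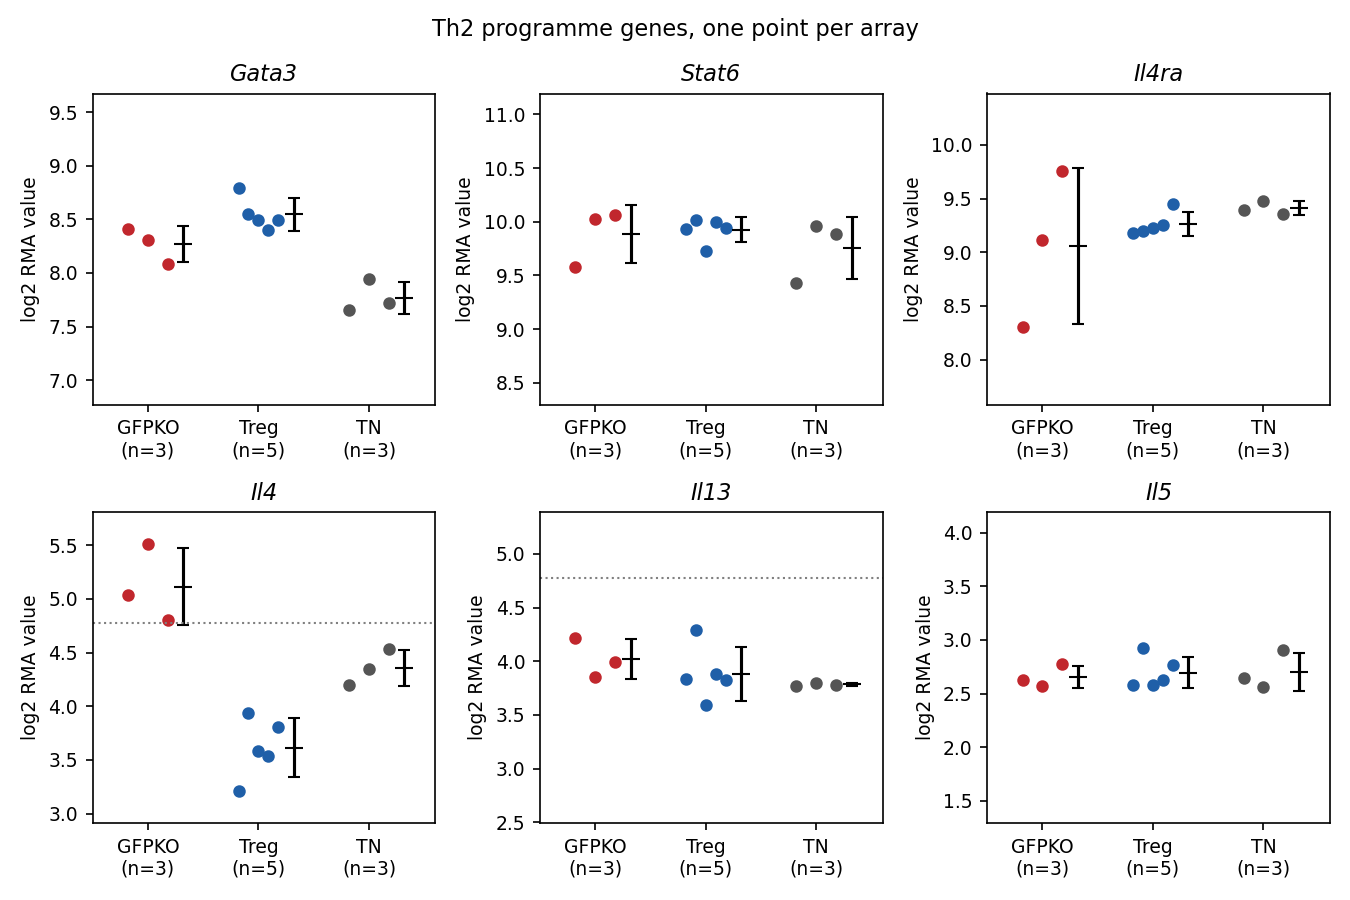
Log2 RMA values of the 6 genes, 1 point per array, with the group mean and SD beside the points; each panel spans the same range on the log2 axis, and the dotted line marks the background level of 4.78. Gata3 sits higher in GFPKO and Treg than in TN, Il4 sits highest in GFPKO and lowest in Treg, and all Il13 and Il5 values lie under the line (off the top of the Il5 panel).

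Gata3, the zinc finger factor that establishes and maintains the Th2 state, was higher in Treg than in TN. It read 8.41, 8.31 and 8.09 in GFPKO, 8.79, 8.55, 8.49, 8.40 and 8.49 in Treg, and 7.65, 7.94 and 7.72 in TN. Every GFPKO and every Treg array thus lay above every TN array, while the Treg and GFPKO values overlapped. Gata3 was 1.71-fold higher in Treg than in TN (log2 fold change 0.78 ± 0.13 SE, limma adjusted p = 0.000677). An exact permutation test over the arrays gave p = 0.0179, the smallest that 5 against 3 arrays allow. In GFPKO the difference from TN was 0.50 ± 0.14 on the log2 scale and missed the threshold in limma (adjusted p = 0.0579, 95% interval 0.19 to 0.81). With 3 against 3 arrays an exact permutation test cannot go below p = 0.10, and it gave that value. The outcome depended on the processing, and Gata3 passed in 5 of 19 alternatives. It passed without GFPKO replicate 3 (limma adjusted p = 0.0228), without Treg replicate 1 (0.0463) and with array weights (0.00263). It also passed with a filter on dim genes (0.0421) and with the mean of each gene's probe sets (0.0421). In the other 14 alternatives Gata3 was not called, with limma adjusted p-values up to 0.509. The log2 fold change of GFPKO minus TN ran from 0.32 to 0.59 over the 19 alternatives. GFPKO minus Treg was -0.28 ± 0.13, not called in limma (adjusted p = 0.214), with a 95% interval that ended just below 0 (-0.55 to -0.00063). In order of level, Gata3 stood highest in Treg, then GFPKO, then TN, and neither neighbouring pair, Treg and GFPKO or GFPKO and TN, was called.

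The 250 bases before the Gata3 start are shown because Gata3 and Il4 are the 2 genes of the list with called differences. They come from RefSeq (GRCm38.p6, chr2:9878601-9878850, minus strand), are written 5′ to 3′, and end at the base before the start. Capitals mark GGAAA, the core letters bound by NFAT, on either strand.

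Gata3: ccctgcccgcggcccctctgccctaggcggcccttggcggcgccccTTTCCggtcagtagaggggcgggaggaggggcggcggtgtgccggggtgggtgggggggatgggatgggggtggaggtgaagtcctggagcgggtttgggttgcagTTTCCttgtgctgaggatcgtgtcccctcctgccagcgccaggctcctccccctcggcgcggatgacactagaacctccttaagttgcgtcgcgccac

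This window is 70.0% G and C and holds 2 matches to GGAAA, both on the opposite strand.

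Il4 encodes interleukin 4, the cytokine that both induces Th2 cells and is made by them. It read 5.04, 5.51 and 4.80 in GFPKO, 3.21, 3.94, 3.59, 3.54 and 3.80 in Treg, and 4.20, 4.35 and 4.53 in TN. The 3 groups did not overlap: each GFPKO array lay above each TN array, and each TN array above each Treg array. Only the GFPKO mean (5.12 ± 0.36, SD, n = 3) stood above the background level, and GFPKO replicate 3 did so narrowly. That mean was still under the highest mean of the 27 genes of other tissues, 5.63.

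The difference between GFPKO and Treg was the most stable for Il4. It was 1.50 ± 0.18 SE on the log2 scale, or 2.83-fold as measured (limma adjusted p = 7.66e-05, 95% interval 2.17-fold to 3.69-fold). The exact permutation test gave p = 0.0179, the smallest this design allows. It was called under each of the 19 alternatives tried, with log2 fold changes between 1.30 and 1.76. The Treg mean (3.62 ± 0.28, SD, n = 5) is under the background level, so 2.83-fold is a ratio of signals. Taken against the background level itself, Il4 in GFPKO was at least 1.26-fold higher by its mean, with no allowance for the spread among arrays.

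The Il4 signal in GFPKO was also higher than in TN, by 0.76 ± 0.20 on the log2 scale (limma adjusted p = 0.0385, exact permutation p = 0.10, the smallest possible). The TN mean (4.36 ± 0.17, SD, n = 3) was under the background level too, and against that level the bound is again at least 1.26-fold higher. This call was not stable, and 8 of 19 alternatives ended it. It was lost without TN replicate 1 (adjusted p = 0.177), TN replicate 2 (0.117), TN replicate 3 (0.0541), GFPKO replicate 2 (0.182), Treg replicate 3 (0.0588) or Treg replicate 4 (0.0553). It was also lost when only GFPKO and TN were fitted (0.0870) and with the actin difference as a covariate (0.364, log2 fold change 0.57). Adjusted over all 34945 probe sets with 1 symbol, it also missed the threshold (0.0546). The actin difference was highest in GFPKO replicate 2, which also had the highest Il4 value, and its part in the result is seen in that covariate fit only.

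The Il4 signal was lower in Treg (mean 3.62) than in TN (mean 4.36), with a limma adjusted p = 0.0132 and an exact permutation p = 0.0179. This call ended without TN replicate 2 (adjusted p = 0.0528) or TN replicate 3 (0.0833). Both means lie under the background level, so no size is given for this difference. Cells other than T cells also make interleukin 4, so their markers were read beside it. Of 11 measured mast cell and basophil markers, limma called none between GFPKO and Treg (1 lower in GFPKO at an unadjusted p under 0.05), and 2 were lower in GFPKO and in Treg than in TN. The list's mean level was 3.46 to 3.60 in GFPKO arrays, 3.37 to 3.65 in Treg and 3.62 to 3.81 in TN. The defining genes Mcpt8, Cpa3, Ms4a2 and Fcer1a averaged at most 3.45 in any group, under the background level. Above that level were 2 of the 11 in GFPKO, Gata2 (4.85) and Fcer1g (4.82). In Treg and in TN it was 1, Fcer1g (5.21 and 6.45), which is also among the myeloid markers. All 4 measured eosinophil markers were under the background level. Of 13 myeloid and dendritic markers, 9 were lower in GFPKO than in TN, and in Treg 9 were lower than in TN and 1, Lyz2, was higher. Between GFPKO and Treg, limma called 1 of them lower in GFPKO and none higher (4 lower and 1 higher at an unadjusted p under 0.05). The 13 markers had mean levels of 4.43 to 4.78 in GFPKO, 4.86 to 5.14 in Treg and 6.21 to 6.74 in TN. Among 7 measured markers of ILC2 and NKT cells, which can also make interleukin 4, GFPKO minus TN had 1 higher and 1 lower, Treg minus TN 3 higher and 2 lower, and GFPKO minus Treg 2 higher and 3 lower. Their mean level was 5.90 to 6.13 in GFPKO, 6.50 to 6.66 in Treg and 6.18 to 6.41 in TN. Beside these marker counts, 5.66% of all genes were called for GFPKO minus TN, 9.97% for Treg minus TN and 9.43% for GFPKO minus Treg. Klrd1, a receptor of NK cells and some T cells, averaged 3.96 in GFPKO, 3.15 in Treg and 8.83 in TN. Zbtb16, the defining factor of NKT cells, averaged at most 4.01 in any group, under the background level. The part of the myeloid, ILC2 and NKT markers in the Il4 values was not tested.

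The 250 bases before the Il4 start are shown because Il4 had the largest called difference of the 6 genes. It is from RefSeq (GRCm38.p6, chr11:53618666-53618915, minus strand, the outer of 2 starts in that table), with GGAAA on either strand in capitals.

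Il4: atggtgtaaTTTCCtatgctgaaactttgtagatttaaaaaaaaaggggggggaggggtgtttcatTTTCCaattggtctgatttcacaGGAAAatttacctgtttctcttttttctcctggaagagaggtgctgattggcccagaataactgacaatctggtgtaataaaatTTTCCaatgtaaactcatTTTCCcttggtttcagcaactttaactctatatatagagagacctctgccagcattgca

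It has 5 matches to GGAAA, against 4 in the same window of Il13, 2 in Gata3 and Il5, and 1 in Il4ra and Stat6. Over all 32851 such windows 55.6% held at least 1 match and the median was 1. The STAT6 palindrome, TTC and GAA with 4 bases between them, occurred once in the Il4 window, overlapping a GGAAA match, and in 5.85% of all windows. It was in none of the other 5 windows. The GATA letters AGATAA or TGATAA were found once in the Il13 window and in 16.6% of all windows. The forkhead letters GTAAACA, searched because Foxp3 is a forkhead protein, were in none of the 6 windows and in 3.17% of all. A match is a description of the letters, and no binding was measured on these arrays.

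Il13, which acts on epithelium and macrophages through a receptor that shares Il4ra, was under the background level on each of the 11 arrays. It read 4.22, 3.86 and 3.99 in GFPKO, 3.83, 4.29, 3.59, 3.88 and 3.82 in Treg, and 3.77, 3.80 and 3.78 in TN. The highest single value was in Treg, and the GFPKO values lay just above the TN values. No difference was called in limma, and the 95% intervals on the log2 scale were -0.11 to 0.59 for GFPKO minus TN, -0.21 to 0.41 for Treg minus TN and -0.17 to 0.45 for GFPKO minus Treg.

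Il5, the growth factor of eosinophils, also stayed under the background level on each array. Its values ran from 2.57 to 2.77 in GFPKO, 2.58 to 2.92 in Treg and 2.56 to 2.90 in TN, so the 3 groups overlapped. The largest of its 3 differences was -0.048 on the log2 scale (GFPKO minus TN, limma adjusted p = 0.927). Il4, Il13 and Il5 lie side by side on chromosome 11, with Rad50 between Il13 and Il5. Of these 3 cytokine genes only Il4 had a group mean above the background level, and a change in Il13 or Il5 at such signals may not be detectable on these arrays.

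**Figure D2:**
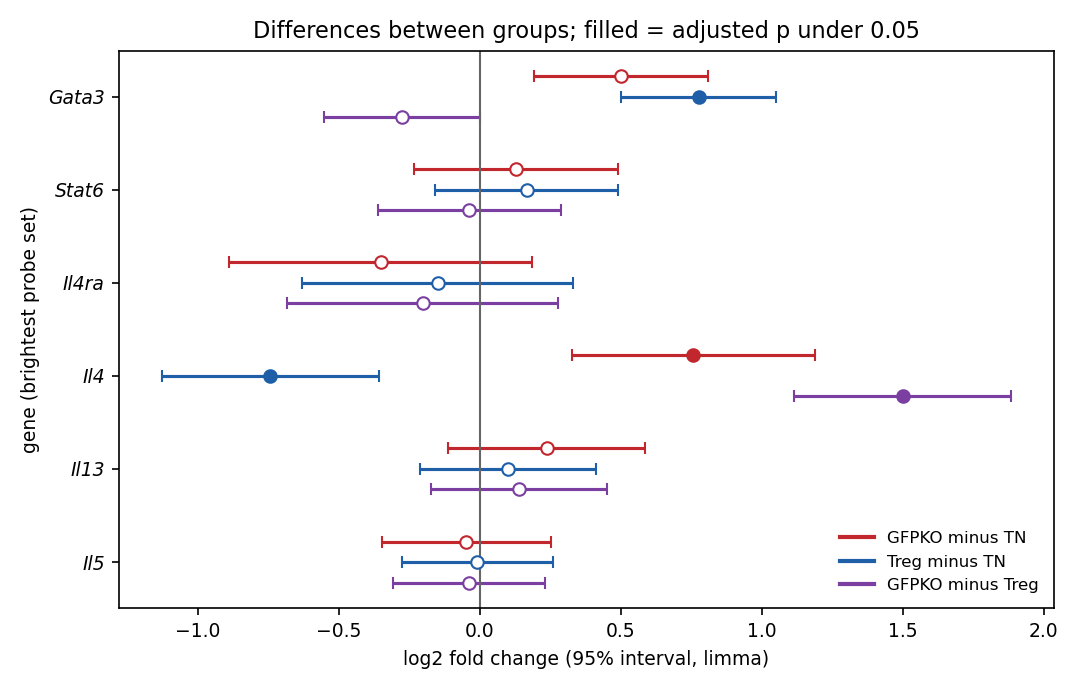
Log2 fold changes of the 6 genes in the 3 comparisons, with 95% intervals from limma; filled points passed an adjusted p under 0.05. Il4 is called in all 3 comparisons, lower for Treg minus TN, where both signals are under the background level, and up to 1.50 for GFPKO minus Treg; Gata3 is called in Treg minus TN only, and the intervals of the other 4 genes include 0.

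Il4ra, the chain common to the receptors of IL-4 and IL-13, was well above the background level on all arrays. It read 8.30, 9.11 and 9.76 in GFPKO, 9.18, 9.20, 9.22, 9.25 and 9.45 in Treg, and 9.39, 9.48 and 9.36 in TN. GFPKO thus held both the lowest and the highest of the 11 values, and its SD of 0.73 compares with 0.11 in Treg and 0.06 in TN. No difference was called in limma: GFPKO minus TN was -0.35 ± 0.25 (adjusted p = 0.570), Treg minus TN -0.15 ± 0.22 (0.802) and GFPKO minus Treg -0.20 ± 0.22 (0.651). The 95% intervals reached -0.89 for GFPKO minus TN and -0.68 for GFPKO minus Treg, so differences of that size are not shown to be absent. The GFPKO value rested on single arrays. Without GFPKO replicate 3, Il4ra was called lower than in TN (-0.70, adjusted p = 0.0333) and lower than in Treg (-0.55, 0.0431). Without GFPKO replicate 1 the differences were 0.026 and 0.17 and not called, and with the actin difference as a covariate they were 0.056 and 0.11.

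A second Il4ra probe set gave the same order within GFPKO, at 6.19, 6.66 and 7.40, against 6.79 to 7.37 in Treg and 6.86 to 7.31 in TN. The third and dimmest ranged from 5.50 to 6.13 over all arrays. No Il4ra probe set was called in any comparison when all 34945 probe sets with 1 symbol were tested.

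Stat6, the factor that carries the interleukin 4 signal to the nucleus, had similar means in the 3 groups. It read 9.58, 10.02 and 10.06 in GFPKO, 9.93, 10.02, 9.73, 10.00 and 9.94 in Treg, and 9.43, 9.96 and 9.88 in TN. One array stood low in each group: GFPKO replicate 1, Treg replicate 3 and TN replicate 1. The differences were 0.13 ± 0.17 for GFPKO minus TN, 0.17 ± 0.15 for Treg minus TN and -0.037 ± 0.15 for GFPKO minus Treg, with limma adjusted p-values of 0.804, 0.634 and 0.919. The 95% intervals lay within -0.36 and 0.49 on the log2 scale. Its other, dimmer probe set had the same 3 low arrays (7.11 in GFPKO, 7.49 in Treg and 7.38 in TN) and a GFPKO range of 1.61, against 0.72 in Treg and 0.73 in TN.

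**Figure D3:**
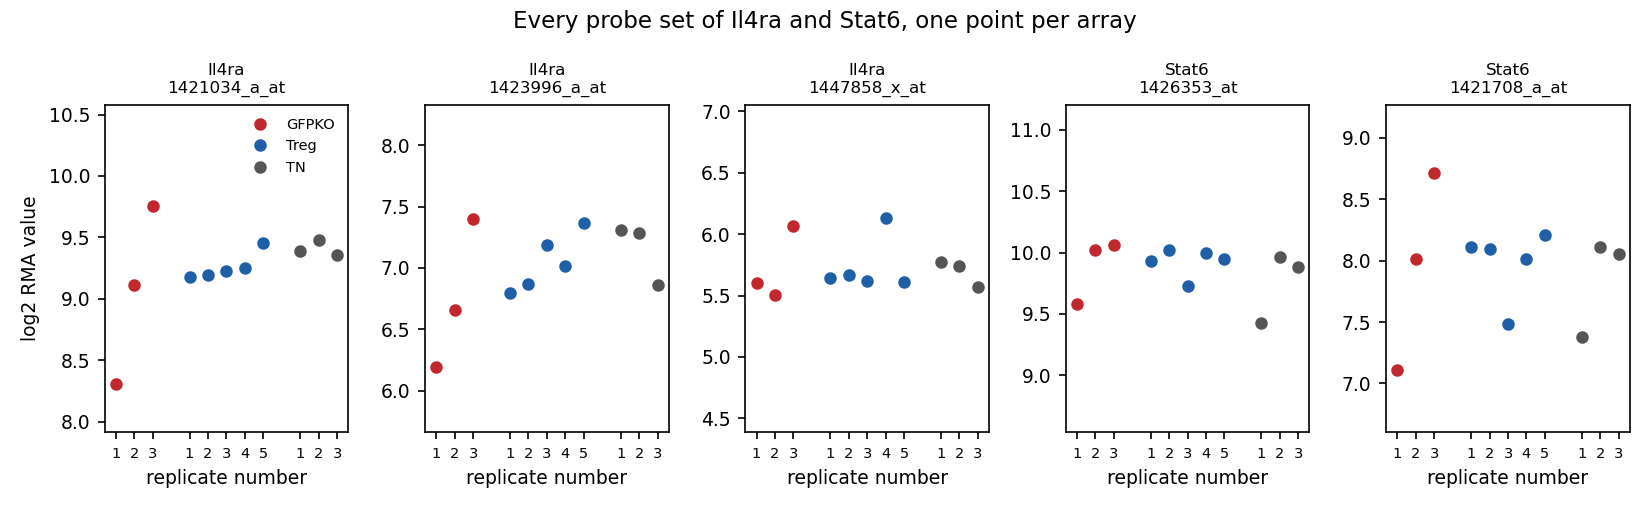
Log2 RMA values of each probe set of Il4ra (3) and Stat6 (2) by array, with replicate numbers on the x axis. For 4 of the 5 probe sets, GFPKO replicate 1 is the lowest GFPKO array, and for all 5 GFPKO replicate 3 is the highest.

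The wider pathway was read from lists of known components, chosen with earlier results of these data known and given as counts. Among 15 measured factors that promote Th2 differentiation, GFPKO exceeded TN for 4 and Treg exceeded TN for 6 in limma, where 2.64% of all genes were higher in GFPKO and 6.54% in Treg. No factor was lower in either, also at an unadjusted p under 0.05 (0 of 15). Higher in both were Maf, which drives Il4 transcription (log2 fold change 2.90 in GFPKO and 1.60 in Treg), Irf4 (2.28 and 2.17), Nfil3 (2.25 and 2.59) and Gfi1 (1.65 and 1.80). Nfil3 in TN was under the background level, and against that level Nfil3 was higher by at least 1.74 in GFPKO and 2.08 in Treg on the log2 scale. Each of these 8 calls held under each of the 19 alternatives. Maf was the only factor of the list called higher in GFPKO than in Treg, by 1.29 ± 0.23 (limma adjusted p = 0.00246). Batf, an AP-1 family factor, was lower there by 1.11, as the only one called in that direction. With the mean of a gene's probe sets the values were smaller, at 2.36 in GFPKO and 1.41 in Treg for Maf and 1.36 and 1.41 for Irf4, and all were still called.

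Among 11 measured opponents of the Th2 programme, 3 were lower in GFPKO than in TN, 2 were lower in Treg than in TN, and limma called none higher in either (at an unadjusted p under 0.05, 1 in GFPKO and 0 in Treg). Of all genes 3.02% were lower in GFPKO than in TN and 3.42% in Treg than in TN. Tbx21 encodes T-bet, the factor of Th1 cells that antagonises GATA3. It lay between 4.40 and 5.13 in GFPKO, between 6.37 and 6.59 in Treg and between 6.27 and 6.66 in TN, so GFPKO did not overlap with either of the others. Tbx21 fell by 1.63 in GFPKO relative to TN (limma adjusted p = 2.19e-05) and by 1.67 relative to Treg (6.87e-06), and both calls held under each of the 19 alternatives. Treg minus TN was 0.040 (adjusted p = 0.934, not called). Runx1, another opponent, was called higher in GFPKO than in Treg by 0.71 (adjusted p = 0.0234). That call ended in 7 of 19 alternatives, among them the fits without GFPKO replicate 1 (0.118), GFPKO replicate 2 (0.0945), Treg replicate 3 (0.0537) or Treg replicate 5 (0.0574). Eomes, a related T-box factor, fell by 0.65 in GFPKO and by 0.66 in Treg, both relative to TN. Its GFPKO call ended without TN replicate 1 (adjusted p = 0.0505). Klrd1 was also lower in GFPKO and in Treg than in TN, as were 9 of 13 myeloid markers in each comparison. Their part in the values of Tbx21, Eomes and Runx3 was not tested. Runx3, which silences Il4 in Th1 cells, fell by 1.06 in GFPKO and by 0.66 in Treg, by its brightest probe set. With the mean of its probe sets neither was called (-0.46, adjusted p = 0.116 in GFPKO, and -0.32, 0.196 in Treg), and the Treg call also ended without TN replicate 1 (0.0947), TN replicate 2 (0.128), Treg replicate 2 (0.0555) or Treg replicate 3 (0.0601).

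**Figure D4:**
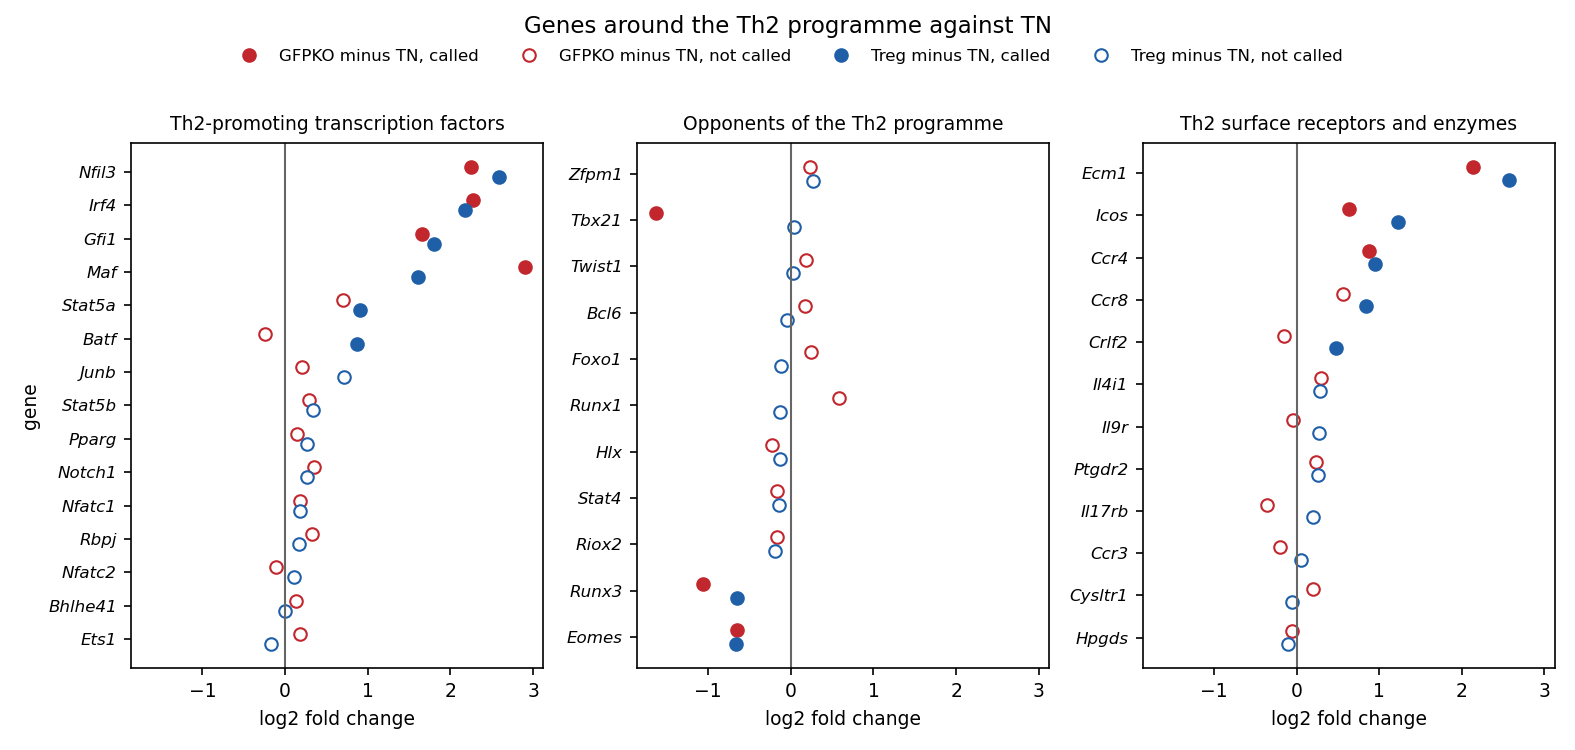
Log2 fold changes against TN for 15 Th2-promoting factors, 11 opponents and 12 surface receptors and enzymes, with GFPKO in red and Treg in blue and filled points called in limma. Maf, Irf4, Nfil3, Gfi1 and Ecm1 lie to the right in both comparisons, while Tbx21 is displaced to the left in GFPKO only, as the direct test of GFPKO minus Treg (-1.67) also shows.

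Of 8 other cytokines of type 2 or helper cells, Il10 was higher in GFPKO than in TN, and Il10 and Il21 were called for GFPKO minus Treg, both higher. Among all genes, 2.64% were higher for GFPKO minus TN and 2.55% for GFPKO minus Treg. For Treg minus TN, 1 of the 8 was higher and 1 lower, where 6.54% of all genes were higher and 3.42% lower. Il21, a cytokine of follicular helper cells, had the same order of group means as Il4. It averaged 5.77 ± 0.52 in GFPKO, 3.73 ± 0.19 in Treg and 5.03 ± 0.11 in TN (SD). The GFPKO signal exceeded that of Treg by 2.04 ± 0.19 (limma adjusted p = 5.40e-06) and Treg was below TN by 1.30 ± 0.19 (0.000182), while GFPKO minus TN was 0.74 and not called (0.0530). Il10, an anti-inflammatory cytokine, averaged 6.00 ± 0.04 in GFPKO, 5.00 ± 0.46 in Treg and 3.43 ± 0.11 in TN, and each of its 3 differences was called. With the mean of its probe sets the Il21 values were smaller, at 0.91 for GFPKO minus Treg and -0.59 for Treg minus TN, and both were still called. Il21 in Treg was under the background level, and against that level Il21 was higher by at least 0.99 in GFPKO and 0.25 in TN. Il10 in TN was under it as well, and Il10 was higher by at least 1.23 in GFPKO and 0.22 in Treg. The remaining 6, Il3, Il9, Il24, Il31, Csf2 and Il6, had group means between 2.04 and 4.54, under the background level, and none was called.

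Of 12 surface receptors and enzymes linked to Th2 cells, 3 were higher in GFPKO and 5 in Treg than in TN, where 2.64% of all genes were higher in GFPKO and 6.54% in Treg. Ecm1, a secreted protein known to help Th2 cells leave lymph nodes, rose by 2.14 in GFPKO and 2.57 in Treg. Ccr4, a chemokine receptor of Th2 and regulatory T cells, was called higher in GFPKO and in Treg than in TN. Its means were 4.72 in GFPKO and 3.85 in TN, under the background level, and 4.80 in Treg, barely above it. Ccr8, another such receptor, was called higher in Treg, at means of 4.05 in Treg and 3.21 in TN, both under the background level. Icos, a co-stimulatory receptor, was higher by 0.63 in GFPKO and 1.23 in Treg. For Icos the GFPKO call ended in 6 of 19 alternatives, among them the fits without TN replicate 2 (adjusted p = 0.0696), TN replicate 3 (0.0891), GFPKO replicate 1 (0.0603) or GFPKO replicate 2 (0.0687). Ptgdr2, the prostaglandin receptor used as a Th2 marker, was under the background level in each group and was not called in any comparison. Between GFPKO and Treg, 3 genes of the list fell in GFPKO: Crlf2 fell by 0.62, Icos fell by 0.59 and Il17rb had a mean of 4.35 in GFPKO, under the background level, against 4.89 in Treg. Of all genes 6.88% were lower in GFPKO than in Treg. The Crlf2 and Il17rb calls ended with the actin covariate (adjusted p = 0.0932 for Crlf2 and 0.0789 for Il17rb).

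Of 15 components of IL-4 and IL-13 signalling other than the 6 genes, limma called none between GFPKO and TN (at an unadjusted p under 0.05, 3 higher and 1 lower in GFPKO). Treg exceeded TN for 4 of them, and no gene of this list was lower there by the test (2 at an unadjusted p under 0.05). Of all genes 6.54% were higher in Treg than in TN and 3.42% lower. Socs1 and Socs5, both inhibitors of cytokine receptor signalling, were higher in Treg by 1.49 ± 0.24 and 1.09 ± 0.21 on the log2 scale, and both calls held under each of the 19 alternatives. Jak3 and Irs2, a kinase and an adaptor of the interleukin 4 receptor, were higher by 0.76 and 0.65. The Jak3 call ended in 8 alternatives, with the largest adjusted p, 0.280, without TN replicate 1, and the Irs2 call in 5, with the largest, 0.147, without the same array. Socs5 fell by 0.89 in GFPKO relative to Treg. Socs1 fell by 0.86 in that comparison, but its call ended in 10 of 19 alternatives, with adjusted p-values up to 0.326 (actin covariate). Jak2 was higher in GFPKO than in Treg by 0.83, a call that ended with the actin covariate (adjusted p = 0.0987).

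Of 9 partners of the IL-33 receptor (which contains Il1rl1) and its signalling, Irak2, a kinase of the interleukin 1 receptor family pathway, was higher in Treg than in TN by 1.40 ± 0.15 and lower in GFPKO than in Treg by 0.78 ± 0.15. Its difference between GFPKO and TN, 0.62, was called (limma adjusted p = 0.0405), but 11 of 19 alternatives ended that call, with adjusted p-values up to 0.169. Sigirr, an inhibitory receptor, was higher in Treg than in TN by 0.70, a call that ended without TN replicate 3 (adjusted p = 0.0591). Map3k7, a kinase of the same pathway, was higher in GFPKO than in Treg by 0.47 (adjusted p = 0.0479), a call that ended in 15 of 19 alternatives, with adjusted p-values up to 0.702 (mean of probe sets). Beside these calls, 5.66% of all genes were called for GFPKO minus TN, 9.97% for Treg minus TN and 9.43% for GFPKO minus Treg.

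Of 8 genes near Il4, Il13 and Il5 on chromosome 11, the Septin8 signal was higher than in TN by 0.68 in GFPKO and by 0.74 in Treg. Septin8 in TN was under the background level, and against that level the differences were at least 0.23 in GFPKO and 0.30 in Treg. Its GFPKO call ended in 4 alternatives, among them the fits without TN replicate 1 (adjusted p = 0.0514) and TN replicate 2 (0.0549). Slc22a5, a carnitine transporter, was higher in Treg than in TN by 1.23 and lower in GFPKO than in Treg by 0.84. Aff4 was lower in Treg than in TN by 0.86 (limma adjusted p = 0.0436), a call that ended in 9 of 19 alternatives, with adjusted p-values up to 0.190 (without TN replicate 1). Rad50 and Kif3a, the genes beside Il13 and Il4, were not called in any comparison. Over the whole table, 5.66% of genes were called for GFPKO minus TN, 9.97% for Treg minus TN and 9.43% for GFPKO minus Treg.

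Of 6 genes near Il1rl1, which belong with it to the interleukin 1 receptor family or lie beside it, 3 were called in at least 1 comparison. GFPKO minus TN had 1 higher and 1 lower, where 5.66% of all genes were called. Treg minus TN likewise had 1 higher and 1 lower, beside 9.97% of all genes. GFPKO minus Treg had 2 higher and 1 lower, beside 9.43% of all genes. With 6 genes, these counts say little about the list. Il1r2, a decoy receptor, averaged 6.21 in GFPKO, 7.63 in Treg and 4.29 in TN, and was lower in GFPKO than in Treg by 1.42 ± 0.21. TN was under the background level, and against that level Il1r2 was higher by at least 1.43 in GFPKO and 2.85 in Treg. Il1rl2, the receptor of IL-36, averaged 4.47 in GFPKO, 3.30 in Treg and 5.77 in TN, with the GFPKO and Treg means under the background level. Il18r1, a chain of the IL-18 receptor, was higher in GFPKO than in Treg by 1.47 ± 0.26 (limma adjusted p = 0.00208).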

How the data were processed

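Total RNA of sorted CD4 T cells was labelled with biotin and hybridised to Affymetrix arrays, per the labels' protocols. The deposited table holds log2 values for 45101 probe sets on 11 arrays, made with RMA per the submitters' processing notes, and the log2 scale was read from the values (1.54 to 14.65). Further details of that processing are not given in the sources used here, and arrays give no counts, so their number limits the precision.

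Probe sets with 1 gene symbol in the platform annotation (34945) were used, and 932 with several symbols and 9211 not listed were left out. Each gene was represented by its probe set with the highest mean, giving 18193 genes. Groups were taken from the labels. One limma fit (version 3.58.1, R 4.3.3) of the 3 groups without covariates gave all contrasts, with two-sided p-values and Benjamini-Hochberg adjustment over all genes. The fit was tested on simulated data. Exact permutation tests over arrays were two-sided. The 19 alternatives were the mean of probe sets, arrays centred on their median, a filter on dim genes, intensity trend with robust moderation, array weights, an actin covariate, a replicate block, fits of each pair alone and leaving out each of 11 arrays. A separate fit tested all probe sets. Where 1 group was under the background level, the brighter mean minus that level is given as the bound. Each such bound rests on a group mean and makes no allowance for the spread among arrays.

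Named are the 7 listed genes, Foxp3, up to 4 called genes per pathway list and comparison by size of change, the 3 genes most correlated with each called member, and defining markers of other cell types. Rad50, Kif3a and Ptgdr2 were named after their values were seen. The members and lists were chosen with earlier results of these data known, and the motifs with the promoter sequences at hand. Promoter sequences are RefSeq's for GRCm38.p6.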

Additional observations from a re-analysis of the deposited data

Results flagged for a closer look

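In 9 groups of 5 Treg arrays, 1 for each probe set of the 6 genes, 4 held an array that stood apart from the others by Dixon's criterion, which chance meets in about 1 of 20 groups. The 9 groups are the same 5 arrays and are not independent, so 4 of 9 cannot be set against that rate. Treg replicate 3 was low for both probe sets of Stat6, at 9.73 for the brighter and 7.49 for the dimmer. For Il4ra, Treg replicate 5 was high at 9.45 for the brightest probe set, and Treg replicate 4 was high at 6.13 for the dimmest. Groups of 3 arrays were not examined in this way.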

How the results depend on the processing

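Il4 in GFPKO minus Treg and Gata3 in Treg minus TN were called under each of the 19 alternatives. The other calls of the 6 genes are given with the results. Genes called over the whole table numbered 5051 in GFPKO minus TN, 3223 in Treg minus TN and 6756 in GFPKO minus Treg with array weights, which weighted the GFPKO arrays 0.254, 5.11 and 0.307. With the actin covariate they were 570 for GFPKO minus TN and 811 for GFPKO minus Treg, and with the pair alone 562 for GFPKO minus TN. Leaving out 1 array gave 644 to 1868 for GFPKO minus TN, 1360 to 2398 for Treg minus TN and 1134 to 3421 for GFPKO minus Treg, highest without GFPKO replicate 3 in both GFPKO comparisons. Of the 6 genes, 2 were called higher in GFPKO minus TN with the mean of probe sets, the dim filter or array weights, and 0 with the actin covariate or the pair alone, with a range of 0 to 2 on leaving out 1 array. Calls lower ranged from 0 to 1 in each comparison on leaving out 1 array. With the actin covariate the sign turned for Il5 (0.026 for GFPKO minus TN, 0.0092 for Treg minus TN, 0.016 for GFPKO minus Treg) and Il4ra (0.056 for GFPKO minus TN, 0.11 for GFPKO minus Treg). With array weights it turned for Il5 (0.066 for Treg minus TN), Il13 (-0.070 for GFPKO minus Treg) and Stat6 (0.080 for GFPKO minus Treg). On leaving out 1 array the uncalled differences spanned 0: Il5 -0.12 to 0.052 for GFPKO minus TN, -0.079 to 0.091 for Treg minus TN and -0.096 to 0.017 for GFPKO minus Treg; Stat6 -0.035 to 0.28 for GFPKO minus TN and -0.12 to 0.12 for GFPKO minus Treg; Il4ra -0.70 to 0.026 and -0.55 to 0.17 for the same pair of comparisons; Il13 -0.0020 to 0.17 for Treg minus TN. The causes were not tested. Between samples with the same replicate number, the deviations from the group means had correlations from -0.012 to 0.33. Samples with different numbers were not compared in this way, so these values cannot show whether the numbers pair the arrays. With a replicate block 1049 genes were called for GFPKO minus Treg, 1028 in GFPKO minus TN and 1436 in Treg minus TN, and no call of the 6 genes changed. Signals near the background limit what can be seen of Il13 and Il5.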

Other observations

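Over the 11 arrays, the genes whose values followed Il4 most closely were Aqp3, Plac8 and Nanos1, with Pearson r of 0.912, 0.909 and 0.908. For Gata3 they were Map3k8, Nrp1 and Hivep3, with r of 0.975, 0.963 and 0.961. These were the 3 highest r among 18187 genes compared for each gene, and the arrays share their groups, so these values are a description without a test.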
